A study of Rattus norvegicus with 5 samples.

Results

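Genomic regions were compared directly between the immunoprecipitated library of rat Astrocytes and that of rat Neurons, both pulled down with an antibody against N6-methyladenine (6mA). The members were all regions on named chromosomes in the pair of comparison lists that the authors deposited, one list for each direction. They numbered 56315 of the 545424 regions in all 9 region lists of the study. Of these, 16599 were higher in Astrocytes and 39716 were higher in Neurons. Astrocytes and Neurons gave 1 immunoprecipitated library each, labelled by cell type alone. Neither age, strain, culture and treatment nor any relation to the stem cell line is stated by the labels. The remaining libraries were an immunoprecipitated library of NSCs (neural stem cells, line SCR022) and inputs of NSCs and of Neurons, which are the same DNA without enrichment. With 1 library per cell type there was no test of any difference between cell types, and the values below describe these libraries only.

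6mA is a DNA base in which the amino group of adenine carries a methyl group. It is abundant in bacteria, where it takes part in restriction and mismatch repair, and its level and roles in mammalian DNA are debated. Astrocytes and neurons both descend from neural stem cells, and astrocytes take up glutamate, buffer potassium and supply neurons with antioxidant precursors. The series title names N6amt1, a methyltransferase reported as a 6mA writer and also as a protein methyltransferase, and Txnrd3, a thioredoxin reductase. Whether a listed region holds 6mA was not checked here by another method.

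The Astrocyte library held 15767015 reads and the Neuron library held 16095308 reads, of which 13866225 in Astrocytes and 13930646 in Neurons mapped uniquely. The depths were therefore close, while the lists were not of like length. Regions higher in Astrocytes made up 29.5% of the pair of lists (exact Clopper-Pearson 95% interval 29.1 to 29.9, counting error only) and covered 7.34 Mb. Regions higher in Neurons made up the other 70.5% and covered 16.9 Mb. Peaks over input were closer in number, with 116091 in Astrocytes and 137579 in Neurons, so that Astrocytes held 45.8% of them. The deposited files give the lists in a differing way for each direction. Every region higher in Astrocytes that overlapped an Astrocyte peak over input had exactly its coordinates (78.1% of them all), while 31.9% of the regions higher in Neurons had exactly the coordinates of a Neuron peak. The part of this difference in the counts was not tested.

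Promoter sequence is shown for the genes whose promoter-class regions had the largest folds in each direction and a sequence in the reference. Adamts9 encodes a secreted metalloproteinase that cleaves proteoglycans, and Slf1 encodes a factor that brings the SMC5/6 complex to DNA damage. In the authors' deposited table, the Adamts9 region at chr4:124861256-124862191 was 27.3-fold higher in Astrocytes, and the Slf1 region at chr2:4197434-4197972 was 20.8-fold higher in Astrocytes. Cd1d1 encodes a lipid-presenting surface protein, and Eepd1 encodes an endonuclease-family protein that takes part in the repair of stalled replication forks. In the authors' deposited table, the Cd1d1 region at chr2:186335321-186335788 was 23.5-fold higher in Neurons, and the Eepd1 region at chr8:26651442-26651859 was 20.7-fold higher in Neurons. No source used here names the build of the deposited coordinates, which stand as deposited. The sequences are from RefSeq on GRCr8, from 250 bases before to 50 bases after the gene's start, at chr4:127019827-127020126 for Adamts9 and chr2:8606174-8606473 for Slf1. Those of the genes higher in Neurons lie at chr2:174724980-174725279 for Cd1d1 and chr8:32233695-32233994 for Eepd1. Eepd1 is read on the plus strand and the others on the minus strand. Whether the deposited regions cover these windows was not checked. Capitals mark GATC and, on either strand, GAGGC or GAGGT as well as CAGGC or CAGGT.
Adamts9: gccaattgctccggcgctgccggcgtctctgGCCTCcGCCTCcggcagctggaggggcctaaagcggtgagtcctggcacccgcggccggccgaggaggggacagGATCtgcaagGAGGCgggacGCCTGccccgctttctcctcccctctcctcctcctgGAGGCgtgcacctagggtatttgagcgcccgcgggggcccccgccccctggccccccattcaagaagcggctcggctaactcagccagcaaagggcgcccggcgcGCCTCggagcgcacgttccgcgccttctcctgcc
Slf1: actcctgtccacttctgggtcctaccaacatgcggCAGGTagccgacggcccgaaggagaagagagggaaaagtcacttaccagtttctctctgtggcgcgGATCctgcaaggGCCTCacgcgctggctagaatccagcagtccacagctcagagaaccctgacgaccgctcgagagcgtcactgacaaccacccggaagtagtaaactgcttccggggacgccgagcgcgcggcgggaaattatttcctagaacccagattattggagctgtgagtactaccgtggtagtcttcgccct
Cd1d1: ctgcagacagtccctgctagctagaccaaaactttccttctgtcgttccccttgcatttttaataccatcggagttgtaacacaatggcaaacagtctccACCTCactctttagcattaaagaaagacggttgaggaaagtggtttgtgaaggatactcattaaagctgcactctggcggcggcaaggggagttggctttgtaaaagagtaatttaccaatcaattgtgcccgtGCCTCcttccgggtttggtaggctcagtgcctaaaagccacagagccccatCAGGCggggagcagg
Eepd1: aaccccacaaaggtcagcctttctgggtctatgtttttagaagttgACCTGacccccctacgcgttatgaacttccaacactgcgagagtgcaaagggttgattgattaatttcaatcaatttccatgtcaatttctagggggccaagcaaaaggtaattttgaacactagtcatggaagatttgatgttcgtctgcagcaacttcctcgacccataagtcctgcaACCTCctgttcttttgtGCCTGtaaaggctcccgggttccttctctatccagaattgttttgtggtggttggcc
GATC, the palindrome methylated in many bacteria, stood once in the Adamts9 window and once in the Slf1 window. No GATC was in the Cd1d1 or Eepd1 windows. Among all promoters of named protein-coding genes, 45.7% of 17166 held GATC. It was in 50.4% of the 266 promoters with a sequence whose genes had a promoter region higher in Astrocytes, and in 43.8% of the 614 whose genes had one higher in Neurons. At least 1 of the 4 AGG motifs was in 96.2% of the first, 97.4% of the second and 94.9% of all promoters. Matches can overlap each other, each was counted, and a match describes a sequence, not a site.

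Regions of both directions were short and passed the authors' score limit by little. The median width was 402 bp for regions higher in Astrocytes and 382 bp for regions higher in Neurons. The score in the authors' deposited table is 10 times the −log10 p, and its median was 61.2 for regions higher in Astrocytes and 62.9 for regions higher in Neurons. The lowest score was 50.01 in Astrocytes and 50 in Neurons, which is a p of 1e-05, and 5.88% of the regions higher in Astrocytes and 4.56% of those higher in Neurons scored under 51. The median fold in the authors' deposited table, a ratio of one immunoprecipitated library to the other, was 10.02 for regions higher in Astrocytes and 9.29 for regions higher in Neurons. The upper tail of the score differed further: scores of at least 100 were reached by 6.33% of regions higher in Astrocytes and 9.77% of regions higher in Neurons. Folds of at least 15 in the authors' deposited table were as frequent in Astrocytes (5.02%) as in Neurons (5.04%). Widths under 300 bp were found in 14.5% of regions higher in Astrocytes and 20.6% of those higher in Neurons. Folds took repeated values in the authors' deposited table, and the most frequent fold of 10.4 stood at 1389 regions higher in Astrocytes and 3139 higher in Neurons.

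The regions with the largest folds lay mostly in introns or outside genes. In the authors' deposited table, the largest fold higher in Astrocytes was 39, at chr9:115470834-115471359 in an intron of Ptprm, a receptor tyrosine phosphatase that mediates homophilic cell adhesion. By the authors' own folds over input, that region was also a peak in Astrocytes with a fold of 35.5 and in NSCs with a fold of 9.84, and no Neuron peak overlapped it. Over its whole length Ptprm held 5 regions higher in Astrocytes and 8 higher in Neurons. The largest fold higher in Neurons in the authors' deposited table was 44.9, at chr10:105455514-105456201, which had no annotation class. It overlapped a Neuron peak with a fold of 33.6 over input and an NSC peak with a fold of 14.8, and no Astrocyte peak. Within genes, the largest fold higher in Neurons in the authors' deposited table was 28.6, at chr9:92289363-92289800 in an intron of Dner, a transmembrane protein described as a Notch ligand in neurons. The next genes higher in Astrocytes in the authors' deposited table were Adamts9, then Unc5d, a netrin receptor (24.9), Rbsn, an endosomal trafficking factor (24.7), and Rab38, a small GTPase of melanosomes (24.7). Those higher in Neurons in the authors' deposited table were Clasp1, a microtubule plus-end protein (27.3), Tfec, a transcription factor (26), Ubap2 (26) and Cacna1e, the pore subunit of R-type calcium channels (26).

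Most regions coincided with a peak of the library in which they were higher and with none of the other library. The same immunoprecipitated libraries gave both the peaks and the comparison, so these peaks are no independent check of the regions. A Neuron peak overlapped 6.46% of the regions higher in Astrocytes, and an Astrocyte peak overlapped 11.3% of the regions higher in Neurons. Their own library's peaks overlapped 78.1% of the regions higher in Astrocytes and 76.6% of those higher in Neurons. Where both libraries had a peak, the median fold between them in the authors' deposited table was 5.85 for regions higher in Astrocytes and 5.64 for regions higher in Neurons. No peak of any of the 3 cell types overlapped 20.9% of the regions higher in Astrocytes and 22.3% of those higher in Neurons. NSC peaks, from a library outside this comparison, overlapped 22% of the regions higher in Astrocytes and 26.3% of those higher in Neurons. For comparison, NSC peaks overlapped 56.1% of all Astrocyte peaks and 51.5% of all Neuron peaks.

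The share of a library's own peaks that was listed as higher depended on the peak's rank. Of all peaks, 11.2% of Astrocyte peaks were listed as higher in Astrocytes, and 22.1% of Neuron peaks were listed as higher in Neurons. Among the lowest 10% by score over input the shares were 7.5% of Astrocyte peaks and 21.6% of Neuron peaks. Among the highest 10% they were 2.94% of Astrocyte peaks and 12.9% of Neuron peaks, and there 99.98% of Astrocyte peaks and 99.9% of Neuron peaks overlapped a peak of the other library. The strongest peaks over input were thus nearly all shared by both libraries, and few of them were listed.

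**Figure D1:**
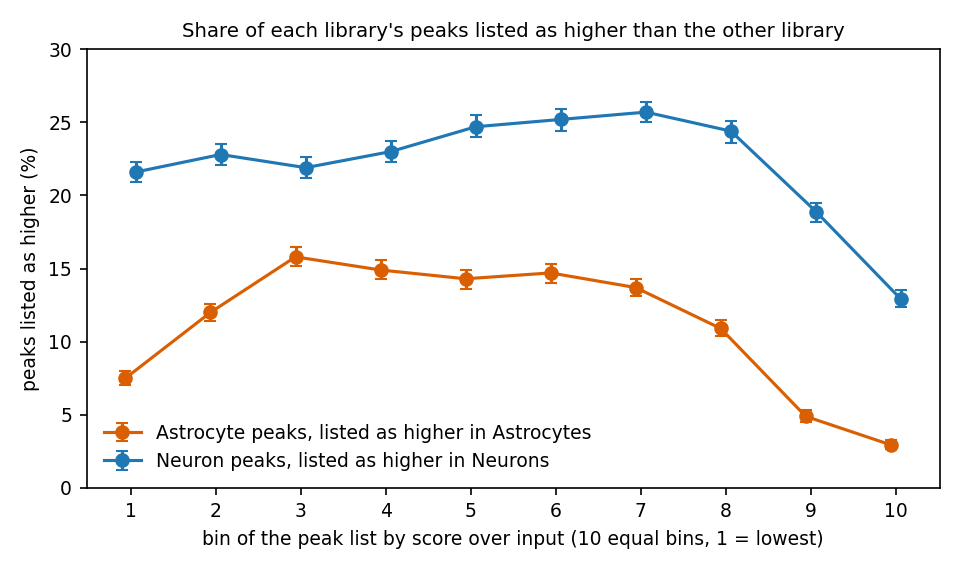
Share of peaks over input that were listed as higher than the other library (y axis, percent), in 10 equal bins of the peak list ranked by score (x axis, lowest to highest), for Astrocyte peaks (orange) and Neuron peaks (blue). Bars are exact 95% binomial intervals; the Astrocyte line peaks at 15.8% in bin 3 and ends at 2.94%, and the Neuron line peaks at 25.7% in bin 7 and ends at 12.9%.

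Regions of opposite direction come from the same comparison of the same libraries, so little overlap between them was possible. Of the 16599 regions higher in Astrocytes, 9 overlapped a region higher in Neurons. Of the 39716 regions higher in Neurons, 9 overlapped one higher in Astrocytes. Named genes at these places were Hpse2, a heparanase-like protein, Tpst2, a tyrosylprotein sulfotransferase, Slc1a6, a neuronal glutamate transporter, and Slc25a23, a mitochondrial carrier. The median distance from a region higher in Astrocytes to the next of the same direction was 53.9 kb, and that between regions higher in Neurons was 22.6 kb. Regions higher in Astrocytes lay nearer to the more numerous regions of the other direction, at a median of 24.3 kb, with 23.3% within 10 kb, against 12.5% within 10 kb of one of their own. From regions higher in Neurons, the median distance to one higher in Astrocytes was 57.5 kb.

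Both directions had nearly the same make-up by annotation class. Introns held 35.7% (34.9 to 36.4) of the regions higher in Astrocytes and 35% (34.5 to 35.5) of those higher in Neurons. Exons held 4.75% (4.43 to 5.08) of the regions higher in Astrocytes and 4.37% (4.17 to 4.58) of those higher in Neurons. Among the 8299 regions of highest score in each list, exons held 4.64% in Astrocytes and 3.55% in Neurons. Promoters held 3.49% (3.22 to 3.78) of the regions higher in Astrocytes and 3.71% (3.53 to 3.9) of those higher in Neurons. CpG islands held 84 regions higher in Astrocytes (0.506%) and 206 higher in Neurons (0.519%), and their shores held 1.33% of the regions higher in Astrocytes and 1.48% of those higher in Neurons. No class at all was given to 58.5% of the regions higher in Astrocytes and 59% of those higher in Neurons. Seen within each class, the share higher in Astrocytes went from 27.3% (24.2 to 30.5) in CpG island shores to 31.2% (29.4 to 33.1) in exons, so regions higher in Neurons outnumbered the others in every class.

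**Figure D2:**
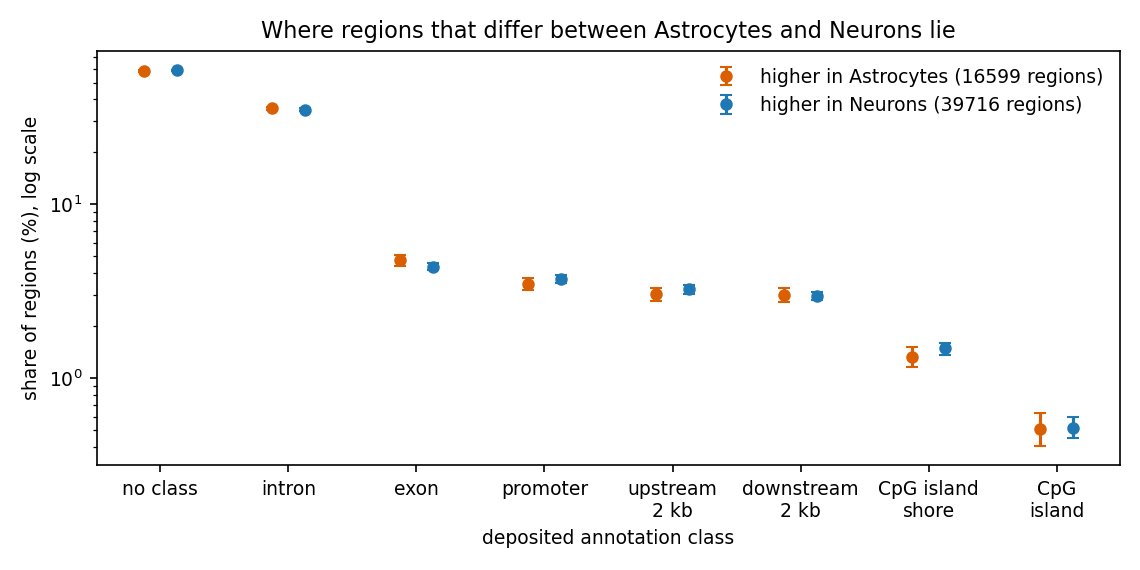
Share of regions in each deposited annotation class (y axis, percent, log scale) for the 16599 regions higher in Astrocytes (orange) and the 39716 higher in Neurons (blue), with exact 95% binomial intervals. A region can stand in several classes; the pairs of points lie close together, from 58.5% (Astrocytes) and 59% (Neurons) without a class down to 0.506% (Astrocytes) and 0.519% (Neurons) in CpG islands.

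Promoter regions touched few genes. Of 20936 named protein-coding genes, 319 had a promoter region higher in Astrocytes (1.52%) and 742 had one higher in Neurons (3.54%). After Adamts9 and Slf1, large promoter folds higher in Astrocytes in the authors' deposited table were at Hk3, a hexokinase (17.4), and Tmem145 (16.8). After Cd1d1 and Eepd1, those higher in Neurons in the authors' deposited table were at Lcmt1, which methylates protein phosphatase 2A (20.1), Bfar, an apoptosis regulator (19.6), and Crym, a thyroid hormone binding protein (19.4). The Bfar region also lay by Parn and the Crym region by Thumpd1. Among CpG islands, the largest fold higher in Astrocytes in the authors' deposited table was 14.3 at Cep95 and Ddx5. The Eepd1 region, and one at the ribosomal protein gene Rps15a with 18.9, led the CpG islands higher in Neurons in the authors' deposited table. Rps15a is a gene with near-identical copies in rodent genomes, as are the olfactory receptor genes on these lists, and reads can be placed in the wrong copy.

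Regions higher in Neurons outnumbered those higher in Astrocytes on every chromosome. Chromosome 1 had the lowest share higher in Astrocytes, with 1553 regions against 4705 higher in Neurons, or 24.8% (23.7 to 25.9). On the other autosomes the share went from 26.5% on chromosomes 13 and 18 to 32.2% (30.4 to 34) on chromosome 15, with a median of 30.3%. The X chromosome held 768 regions higher in Astrocytes and 1723 higher in Neurons, or 30.8% (29 to 32.7). Of 29 windows of 10 Mb on chromosome 1, 25 had a share below 29.7%, the median of the windows on other chromosomes. Over 283 windows the share went from 16.8%, at 210000001 to 220000000 on chromosome 1, to 42.4%, at 120000001 to 130000000 on chromosome 7. The peaks over input did not set chromosome 1 apart: Astrocytes held 45.8% of them there, and 45.2% to 46.4% over all autosomes. With regions inside a peak of the same library only, chromosome 12 had the lowest share (24.9%) and chromosome 1 the next (26%). Per Mb, chromosome 15 was densest in regions higher in Astrocytes (7.64) and chromosome 12 in regions higher in Neurons (19.5), and chromosome 14 was lowest for both (3.46 higher in Astrocytes and 8.09 higher in Neurons).

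**Figure D3:**
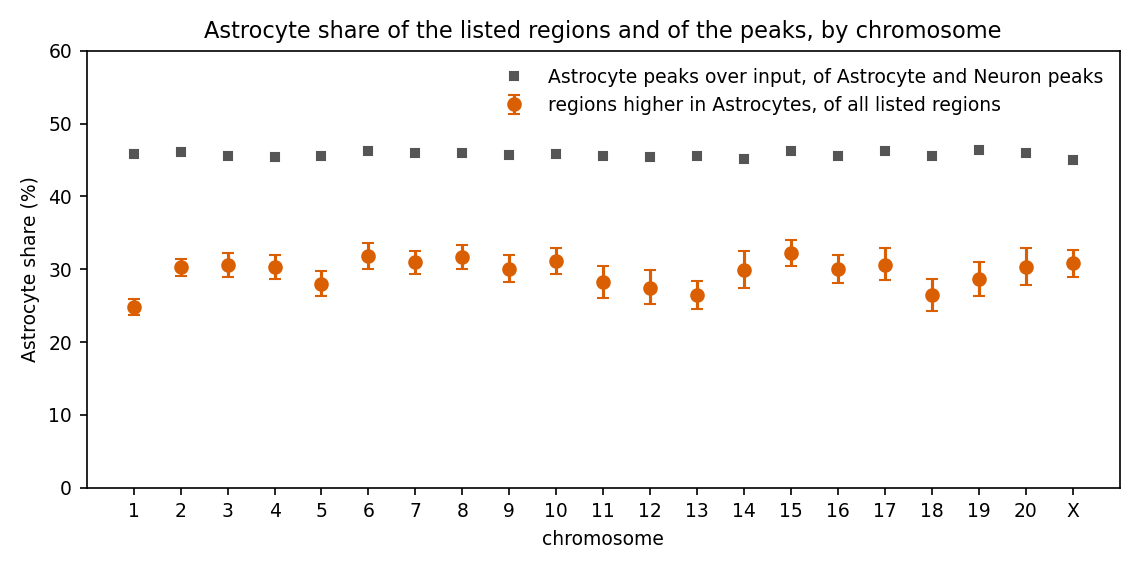
Astrocyte share (y axis, percent) by chromosome (x axis): orange points give regions higher in Astrocytes among all listed regions, with exact 95% binomial intervals, and grey squares give Astrocyte peaks among Astrocyte and Neuron peaks over input. The orange points run from 24.8% on chromosome 1 to 32.2% on chromosome 15, and the squares stay near 45.8%.

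Longer genes had a region more often. Of the 20936 named protein-coding genes, 17.6% had at least 1 region higher in Astrocytes and 29.6% had at least 1 higher in Neurons, each in or within 2 kb of the gene or in its promoter class. Among the 2505 genes of 100 kb or more, these shares were 55.6% in Astrocytes and 77.7% in Neurons, and among shorter genes 12.4% in Astrocytes and 23% in Neurons. Regions of named protein-coding genes numbered 5596 higher in Astrocytes and 13017 higher in Neurons, so that 30.1% were higher in Astrocytes. Both directions were present in 2112 of these genes. The genes with the most regions were very long. Ctnna3, an alpha-catenin, held 13 regions higher in Astrocytes and 30 higher in Neurons. Galntl6, a GalNAc-transferase family gene, held 13 higher in Astrocytes and 36 higher in Neurons, and Dpp10, an auxiliary subunit of A-type potassium channels, held 12 higher in Astrocytes and 37 higher in Neurons. Among the 10 leading genes of each direction, Ptprg, a receptor tyrosine phosphatase, alone had more regions higher in Astrocytes (11) than in Neurons (8). St6galnac3, a sialyltransferase gene, lay at the other end with 1 region higher in Astrocytes and 25 higher in Neurons.

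**Figure D4:**
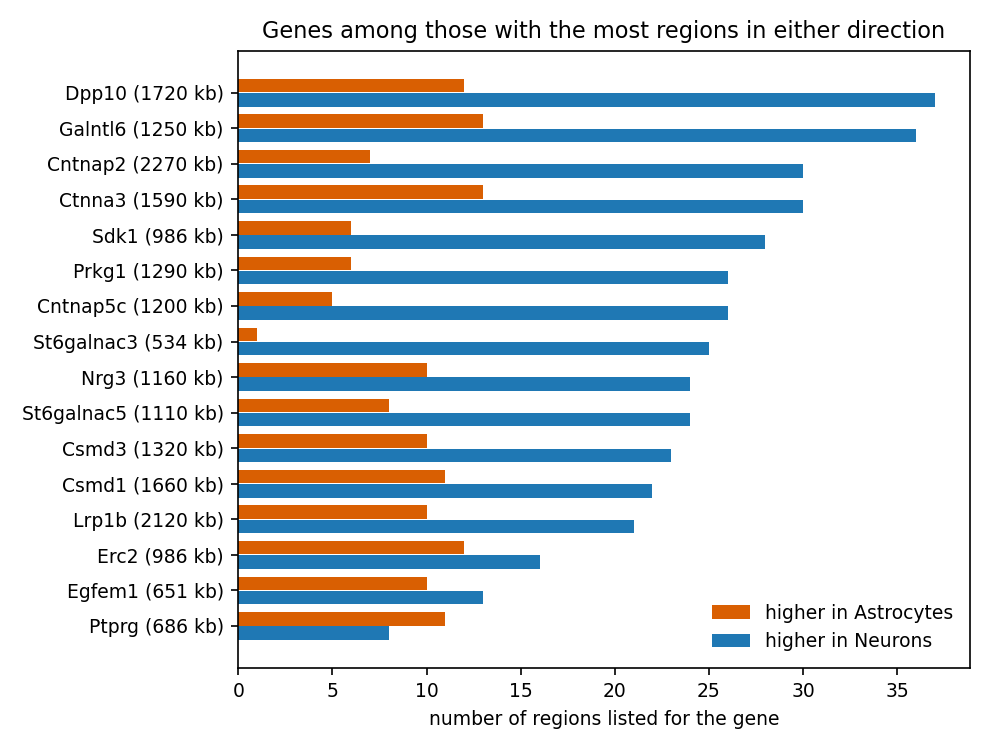
Number of regions higher in Astrocytes (orange) and in Neurons (blue) for genes among those that lead either list by number (y axis, with RefSeq length in kb). Ptprg, with 11 higher in Astrocytes and 8 higher in Neurons, is the one gene shown with a longer orange than blue bar, and Dpp10, with 12 higher in Astrocytes and 37 higher in Neurons, has the longest blue bar.

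Some genes carried regions of 1 direction alone. Among named genes with any region higher in Astrocytes, 1598 of 3725 had none higher in Neurons, and among those with any region higher in Neurons, 4177 of 6304 had none higher in Astrocytes. Such counts are to be read beside the 5596 regions higher in Astrocytes and 13017 higher in Neurons of all named protein-coding genes. Of the 117 named genes with at least 5 regions higher in Astrocytes, 2 had none higher in Neurons: Zbtb16, a zinc finger transcription factor, and the adhesion gene Sdk2, with 5 regions each. Zbtb16 nevertheless held 7 Astrocyte peaks and 8 Neuron peaks over input, and Sdk2 held 7 of each. Of the 519 named genes with at least 5 regions higher in Neurons, 86 had none higher in Astrocytes. They were led by Galnt18, a GalNAc-transferase gene (12 regions), Adamts17, a metalloproteinase gene (11), Gadl1, a decarboxylase gene (10), and Itga9, an integrin subunit gene (10). Channel and signalling genes were among them, with 9 regions each in Kcnk2, a background potassium channel, and Prkcb, a protein kinase C. Kcnd3, an A-type potassium channel, held 8, and Gabrb2, a GABA-A receptor subunit, and Igf1r, the receptor of insulin-like growth factor 1, held 7 each. The leading genes nevertheless held peaks of both libraries over input. Galnt18 held 20 Astrocyte peaks and 25 Neuron peaks, Adamts17 held 14 and 20, Gadl1 24 and 26, and Itga9 23 and 28. Gna14, a G protein alpha subunit gene, held 9 regions higher in Neurons, with 1 Astrocyte peak and 13 Neuron peaks over input. By density, Dpy19l2 led among genes of at least 20 kb with at least 5 regions higher in Astrocytes (4.19 per 100 kb), followed by the laminin gene Lama4 (3.54). Slc6a16, of a neurotransmitter transporter family, led in Neurons with 17.5 per 100 kb, followed by Zc3h13, a subunit of the RNA N6-methyladenosine writer complex, with 9.3.

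The genes of the series title gave a small count. N6amt1 had no region in either direction and no peak over input in Astrocytes, Neurons or NSCs. Txnrd3 had no region higher in Astrocytes and 2 higher in Neurons, both in introns. In the authors' deposited table they lay at chr4:121639204-121639585 with a fold of 8.01 and at chr4:121641923-121642314 with a fold of 9.81. Over input, Txnrd3 held 3 Astrocyte peaks and 5 Neuron peaks. The only promoter peak among them, in Neurons, was at chr4:121611399-121611828 with a fold of 13.3 over input, and it was in neither direction of the comparison between Astrocytes and Neurons.

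Redox genes, fixed as a list of 24, carried regions in 1 direction. No member had a region higher in Astrocytes, and 11 had one higher in Neurons, beside 17.6% (Astrocytes) and 29.6% (Neurons) of all named protein-coding genes. The list held 0 regions higher in Astrocytes and 17 higher in Neurons. With each region counted as independent, though some genes held several, the interval for a share of 0% reached 19.5%. All named protein-coding genes stood at 30.1%. Slc7a11, the cystine importer that feeds glutathione synthesis, held 3 regions higher in Neurons. Gclc and Gclm, the subunits of the rate-limiting enzyme of glutathione synthesis, held 2 each, as did the superoxide dismutase Sod1 and Txnrd3. Gss, glutathione synthetase, Gsr, glutathione reductase, Glrx, glutaredoxin, Txnrd1, thioredoxin reductase, and the peroxiredoxins Prdx3 and Prdx6 held 1 each. The folds of these 17 regions in the authors' deposited table went from 5.29 to 12 with a median of 9.1, beside 9.29 for all regions higher in Neurons. Gclc had the largest, 12 in the authors' deposited table, at chr8:85059733-85060028. Of the 17 regions, 11 overlapped a Neuron peak over input, 2 an Astrocyte peak and 2 an NSC peak, and 15 lay in introns. Over input, 12 of the 24 genes held an Astrocyte peak and 14 a Neuron peak. This was 1 of 24 lists described, and no test was made.

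The list of adenine methylation enzymes, which also holds readers of methylated RNA, carried regions in both directions. Of 12 members, 2 had a region higher in Astrocytes (16.7%) and 4 had one higher in Neurons (33.3%). These shares were near the 17.6% (Astrocytes) and 29.6% (Neurons) of all named protein-coding genes. Fto, a demethylase of N6-methyladenosine in RNA, held 2 regions higher in Astrocytes and 4 higher in Neurons within 408 kb. Mettl16, an RNA methyltransferase, held 1 higher in Astrocytes. Alkbh1 and Alkbh4, described as adenine demethylases, and Ythdc1, a reader of methylated RNA, held 1 each higher in Neurons. The Alkbh4 region, at chr12:23574940-23575317, was in the promoter class, with a fold of 8.64 in the authors' deposited table.

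Markers of astrocytes and neurons did not divide by direction. These are DNA libraries, so markers cannot show here what the cells expressed. Of 8 astrocyte markers, 1 had a region higher in Astrocytes (Slc1a3, a glutamate transporter) and 3 had one higher in Neurons (Aqp4, the water channel, Aldh1l1, a folate enzyme, and Slc1a2, a glutamate transporter). Gfap, S100b, Glul and Gja1 had none. Of 7 neuron markers, 3 had a region higher in Astrocytes (Map2, Syn1 and Snap25) and 2 had one higher in Neurons (Snap25 and Stmn2). Rbfox3, Tubb3 and Dcx had none. Both marker sets are small and are to be read beside the shares of all named protein-coding genes, 17.6% (Astrocytes) and 29.6% (Neurons). On the wider list of 25 astrocyte genes, 5 had regions higher in Astrocytes and 13 had regions higher in Neurons, with 12 regions higher in Astrocytes and 36 higher in Neurons in all. These members were 20% of the list for Astrocytes and 52% for Neurons, beside 17.6% (Astrocytes) and 29.6% (Neurons) of all named protein-coding genes. Gpc5, a glypican gene of 1440 kb, held 7 regions higher in Astrocytes and 19 higher in Neurons. Slc4a4, a bicarbonate transporter gene, held 1 higher in Astrocytes and 4 higher in Neurons, and Nfia, a transcription factor of astrocyte formation, held 2 in each direction. Promoter-class regions on this list were both higher in Neurons, at Aldoc, a glycolytic enzyme, and Clu, a chaperone, with folds of 9.98 and 11.2 in the authors' deposited table. On the wider list of 21 neuronal structure genes, 9 had regions higher in Astrocytes and 9 had regions higher in Neurons, or 42.9% each. Of these 21 genes, 10 reach 100 kb. They held 17 regions higher in Astrocytes and 38 higher in Neurons, or 30.9% (19.1 to 44.8).

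Neuronal fate factors and respiration genes had the highest shares in Astrocytes among lists with at least 10 regions. Of 29 neuronal fate factors, 8 had a region higher in Astrocytes (27.6%) and 10 had one higher in Neurons (34.5%). Among all named protein-coding genes these shares were 17.6% (Astrocytes) and 29.6% (Neurons). The fate factors held 18 regions higher in Astrocytes and 21 higher in Neurons, or 46.2% (30.1 to 62.8). The lower end of that interval met the 30.1% of all named protein-coding genes. This order of lists did not hold among the regions of higher score (at least 62.5), where fate factors stood at 36.4%, below stem cell genes (53.8%) and BMP and TGF-beta genes (50%). Nfix, a nuclear factor of neural differentiation (Nf1x in the deposited files), held 4 regions higher in Astrocytes and 1 higher in Neurons. Mef2c, an activity-regulated transcription factor of neurons, held 3 regions higher in Astrocytes and none higher in Neurons. In the authors' deposited table these were at chr2:11746077-11746486, chr2:11757331-11757699 and chr2:11778363-11778854, with folds of 13, 14.2 and 7.81. Zbtb20, a hippocampal transcription factor gene of 739 kb, went the other way with 3 higher in Astrocytes and 8 higher in Neurons. A promoter-class region was higher in Astrocytes at Neurod2, a neuronal differentiation factor, with a fold of 8.44 in the authors' deposited table.

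Synaptic and channel genes held many regions, and many of these genes are long. Of 26 glutamate receptor genes, 18 had a region higher in Astrocytes and 21 had one higher in Neurons, with 51 regions higher in Astrocytes and 130 higher in Neurons. These members were 69.2% of the list for Astrocytes and 80.8% for Neurons, beside the 55.6% for Astrocytes and 77.7% for Neurons among all genes of 100 kb or more, a length that 18 of the 26 reach. Grin2a, an NMDA receptor subunit, held 2 higher in Astrocytes and 14 higher in Neurons, and Grid1, a delta receptor subunit, held 9 higher in Astrocytes and 16 higher in Neurons. Of 25 GABA and glycine genes, 10 had regions higher in Astrocytes and 17 had regions higher in Neurons, and each of the 10 also had one higher in Neurons. These members were 40% of the list for Astrocytes and 68% for Neurons, and 13 of the 25 genes reach 100 kb. All named protein-coding genes stood at 17.6% (Astrocytes) and 29.6% (Neurons). Of 28 voltage-gated channel genes, 17 had regions higher in Astrocytes (47 regions) and 23 had regions higher in Neurons (128 regions). These were 60.7% of the list for Astrocytes and 82.1% for Neurons, to be read beside the same shares of long genes, and 23 of the 28 reach 100 kb. Cacna1e held 1 region higher in Astrocytes and 12 higher in Neurons, and the sodium channel gene Scn1a held 2 higher in Astrocytes and none higher in Neurons. The 30 synaptic adhesion and scaffold genes held 108 regions higher in Astrocytes and 231 higher in Neurons, of which Cntnap2, a neurexin-family adhesion gene, had 7 higher in Astrocytes and 30 higher in Neurons, and Nlgn1, a neuroligin, had 8 higher in Astrocytes and 7 higher in Neurons. The 24 presynaptic release genes held 29 regions higher in Astrocytes and 76 higher in Neurons, with Unc13c, a vesicle priming factor, at 1 higher in Astrocytes and 11 higher in Neurons. Per Mb of gene body, glutamate receptor genes held 5.22 regions higher in Astrocytes and 13.4 higher in Neurons, beside 4.87 higher in Astrocytes and 11.3 higher in Neurons for all named protein-coding genes.

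Signalling and guidance genes followed the balance of all genes within their intervals. Axon guidance genes held 73 regions higher in Astrocytes and 151 higher in Neurons, or 32.6% (26.5 to 39.2). They lay in 26 (Astrocytes) and 31 (Neurons) of 35 members, or 74.3% and 88.6%, and 30 of the 35 reach 100 kb. Among all genes of 100 kb or more, the shares were 55.6% for Astrocytes and 77.7% for Neurons. Unc5d held 9 regions higher in Astrocytes and 13 higher in Neurons, and Robo2, a Slit receptor, held 5 higher in Astrocytes and 18 higher in Neurons. Notch pathway genes held 17 regions higher in Astrocytes and 37 higher in Neurons, led by the coactivator Maml3 with 6 higher in Astrocytes and 11 higher in Neurons. They lay in 8 (Astrocytes) and 11 (Neurons) of 21 members, or 38.1% and 52.4%, and 6 of the 21 reach 100 kb. All named protein-coding genes stood at 17.6% (Astrocytes) and 29.6% (Neurons). BMP and TGF-beta genes held 19 regions higher in Astrocytes and 27 higher in Neurons, or 41.3% (27 to 56.8), and Wnt genes held 11 higher in Astrocytes and 14 higher in Neurons, or 44% (24.4 to 65.1). The BMP and TGF-beta regions lay in 15 (Astrocytes) and 16 (Neurons) of 28 members, or 53.6% and 57.1%, and 8 of the 28 reach 100 kb. Their share higher in Astrocytes was 50% at scores of at least 62.5. It was 54.5% at folds of at least 9.53 in the authors' deposited table. Both values lay within the interval of 27 to 56.8. Under each limit 10 members were left in Astrocytes and 8 in Neurons, with no share of all genes computed there. Smad2, a signal transducer of TGF-beta, had 1 intron region higher in Astrocytes, with a fold of 18.6 in the authors' deposited table, and none higher in Neurons. The growth factor receptor list, which also holds ligands such as Nrg3 and Bdnf, held 25 regions higher in Astrocytes and 77 higher in Neurons. Of these, Nrg3 had 10 higher in Astrocytes and 24 higher in Neurons. Erbb4, a neuregulin receptor, had 5 higher in Astrocytes and 18 higher in Neurons. Bdnf, a neurotrophin gene, had 1 promoter-class region higher in Astrocytes, with a fold of 10.4 in the authors' deposited table. JAK-STAT and cytokine receptor genes, which act in astrocyte formation, held 3 regions higher in Astrocytes and 7 higher in Neurons. They lay in 2 (Astrocytes) and 6 (Neurons) of 16 members, or 12.5% and 37.5%, beside 17.6% and 29.6% of all named protein-coding genes. Stat3 was among the members higher in Neurons only. At scores of at least 62.5, 1 of these members was left in Astrocytes and 0 in Neurons.

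**Figure D5:**
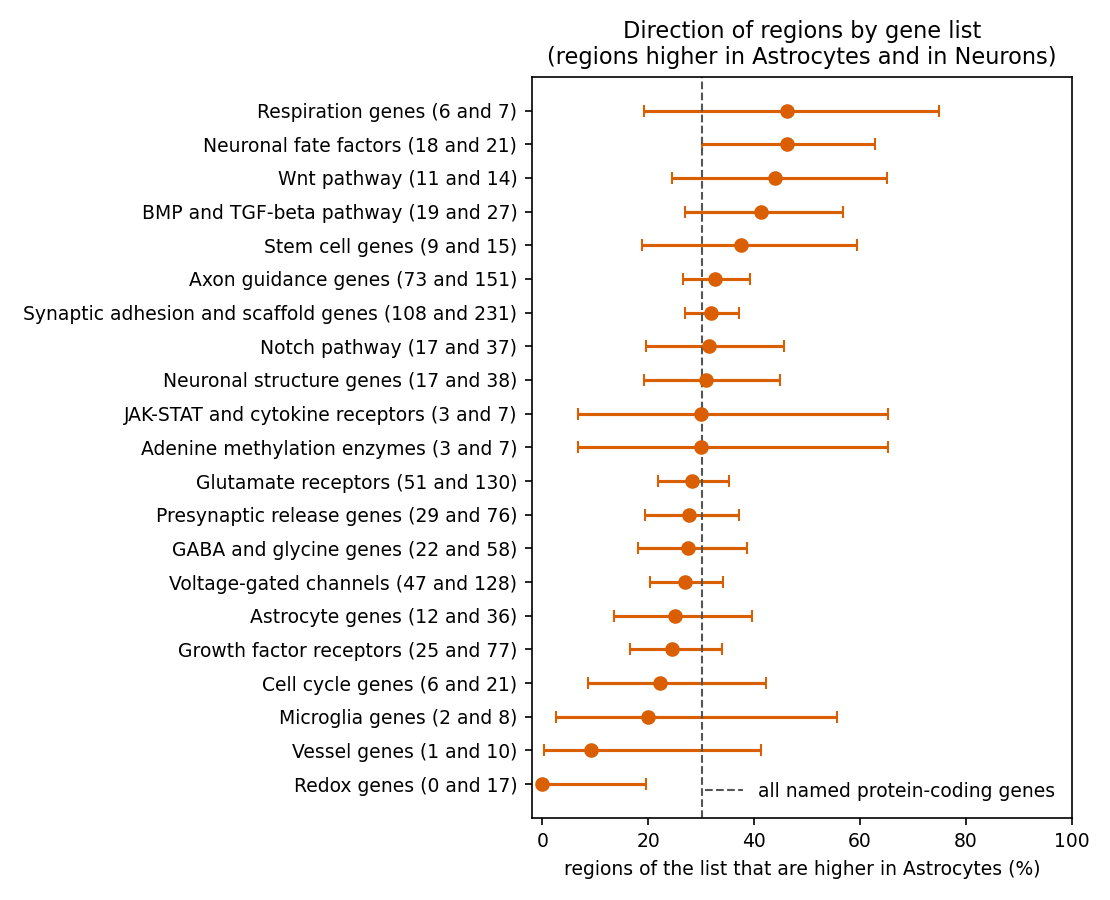
Share of each gene list's regions that were higher in Astrocytes (x axis, percent), with exact 95% binomial intervals, for lists with at least 10 regions; both numbers of regions stand after each name. The dashed line is the 30.1% of all named protein-coding genes; redox genes lie at 0% with 0 regions higher in Astrocytes and 17 higher in Neurons, and neuronal fate factors at 46.2% with 18 higher in Astrocytes and 21 higher in Neurons.

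Stem cell and other cell type genes held few regions. Of 22 stem cell genes, 4 had regions higher in Astrocytes and 4 had regions higher in Neurons, or 18.2% each. Among all named protein-coding genes the shares were 17.6% (Astrocytes) and 29.6% (Neurons). The stem cell genes held 9 regions higher in Astrocytes and 15 higher in Neurons, or 37.5% higher in Astrocytes. That share was 53.8% at scores of at least 62.5 and 53.3% at folds of at least 9.53 in the authors' deposited table. With regions inside a peak of the same library it was 61.5%. The values under the score and fold limits lay within the interval of 18.8 to 59.4 for the share of 37.5%, and the last lay above it. All rest on parts of these few regions. Tnc, tenascin C of the extracellular matrix, held 3 regions higher in Astrocytes and none higher in Neurons, and Msi2, an RNA-binding protein, held 4 higher in Astrocytes and 9 higher in Neurons. Thbs4, a thrombospondin, had 1 intron region higher in Astrocytes, with a fold of 16.9 in the authors' deposited table. Ptprz1, a receptor tyrosine phosphatase, held 3 regions higher in Neurons and none higher in Astrocytes, Lpar1, a lysophosphatidic acid receptor, held 2, and Msi1, an RNA-binding protein, held 1. Oligodendrocyte genes held 2 regions in each direction and microglia genes 2 higher in Astrocytes and 8 higher in Neurons. Vessel genes held 1 region higher in Astrocytes and 10 higher in Neurons, of which Flt1, a VEGF receptor, had 8 higher in Neurons. Cell cycle genes held 6 higher in Astrocytes and 21 higher in Neurons, of which Mad1l1, a spindle checkpoint gene, had 1 higher in Astrocytes and 10 higher in Neurons. Respiration genes held 6 regions higher in Astrocytes and 7 higher in Neurons, in 5 (Astrocytes, 15.6%) and 4 (Neurons, 12.5%) of 32 members. The 31 ribosomal protein genes held 1 in each direction. Over all 24 lists and 548 genes, 482 regions were higher in Astrocytes and 1119 higher in Neurons, or 30.1% (27.9 to 32.4), the same share as for all named protein-coding genes. Lists with more members in Neurons numbered 19, those with equal numbers 4, and the respiration genes alone had more members in Astrocytes, which turned to 2 in Astrocytes and 3 in Neurons at scores of at least 62.5.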

How the data were processed

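DNA pulled down with an antibody against 6mA was sequenced in Astrocytes, Neurons and NSCs, with 1 library per cell type. Reads were aligned with BWA, per the submitters' processing notes, which give no version. No source used here names the genome build, annotation, filters or peak caller. A deposited summary of mapping gives read counts per library and mapping rates in percent. The authors' deposited score is 10 times the −log10 p of a region, and their deposited fold is a ratio of 1 library to its input or to another library. The deposited Astrocyte peaks were called over an astrocyte input, which has no sample of its own here; its row of the mapping summary was not used.

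Both lists were read as deposited, and 1 blank line was skipped. Overlap means at least 1 bp. Intervals are exact Clopper-Pearson 95% intervals over regions and cover counting error only, since neighbouring regions and reads without molecular identifiers are not independent. No p was computed. Symbols were matched to RefSeq (GRCr8) by name or, on the same chromosome, by an older name: 8915 of 11679 symbols (76.3%), and 7721 of 7795 (99.1%) without placeholder names. RefSeq coordinates were used only for the printed promoters. Gene lengths are RefSeq's, or, for densities, the span of its peaks where longer. Overlap and interval code was tested on simulated regions. Python 3.11.15, pandas 2.3.3, NumPy 2.4.6 and SciPy 1.17.1 were used.

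The members, gene lists and rules were chosen with earlier results of these data known. Genes were named by the largest folds, most regions, highest densities, largest promoter and CpG island folds, regions in 1 direction alone, and up to 4 list members per direction by fold. List members named for their number of regions, or for a role, were chosen after their values were seen. Some genes that these rules name are not reported here. Alternatives were a stricter score, a stricter fold, regions inside a peak of the same library, lists of equal length, another overlap, gene body classes, and leaving out the sex chromosomes. Leaving out chromosome 1 was added after its share was seen.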

Additional observations from a re-analysis of the deposited data

How the results depend on the processing

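No paired analysis was possible because each cell type had 1 library. Regions higher in Neurons stayed more numerous with a stricter score, a stricter fold, regions inside a peak of the same library, and without chromosome 1 or chromosomes X and Y. Lists of equal length fix the counts, and another overlap or gene body classes do not change them. A stricter score (at least 62.5, the median over both lists) left 7645 regions higher in Astrocytes and 20524 higher in Neurons, or 27.1%. A stricter fold (at least 9.53 in the authors' deposited table) left 9096 higher in Astrocytes and 19108 higher in Neurons, or 32.3%. The share was 29.9% with regions inside a peak of the same library and 30.1% without chromosome 1. All rows lay on placed chromosomes, so leaving out unplaced contigs gave no value.

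Class shares kept within counting error except as follows. With the stricter score they were 0.379% for CpG islands in Astrocytes and 4% for exons in Neurons. With the stricter fold, shores held 1.52% in Astrocytes, and in Neurons exons held 4.06%, introns 34.3%, CpG islands 0.445%, gene bodies 35.6% and no class 59.9%. With regions inside a peak of the same library, the shares in Astrocytes were 2.93% for promoters, 2.63% upstream, 3.56% for exons, 34.7% for introns, 2.51% downstream, 0.278% for CpG islands, 0.948% for shores, 35.7% for gene bodies and 60.5% for no class. In Neurons they were 3.27%, 2.91%, 3.22%, 33.6%, 2.7%, 0.335%, 1.21%, 34.6% and 61% in that order of classes. With lists of equal length (8299 regions each, by score), those in Neurons were 3.51% for promoters, 3.55% for exons, 34.2% for introns, 1.31% for shores, 35.2% for gene bodies and 60.1% for no class. In each setting the exon share was larger in Astrocytes than in Neurons. It was 4.7% in Astrocytes with the stricter score, 4.87% with the stricter fold and 4.64% with lists of equal length.

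Overlap shares depended on the setting. With at least 50% of a region overlapped, the other library's peaks held 5.36% of regions higher in Astrocytes and 10.3% of those higher in Neurons, and NSC peaks held 20.4% in Astrocytes and 25% in Neurons. With the stricter score, the same library's peaks held 87.3% in Astrocytes and 88.4% in Neurons, NSC peaks 26.7% in Astrocytes and 32% in Neurons, and the other library's peaks 12.9% in Neurons. With the stricter fold, the same library's peaks held 77.5% in Astrocytes and 75.6% in Neurons, the other library's 0.385% in Astrocytes and 0.764% in Neurons, and NSC peaks 13.9% in Astrocytes and 16.4% in Neurons. The share on chromosome 1 was 21.3% with the stricter score and 26% inside a peak of the same library. The share over all list genes was 34.4% with the stricter fold. The same fold brought Wnt, microglia and adenine methylation genes to 50% each and respiration genes to 55.6%. These rest on few regions, and each lay within its list's interval without that limit. The intervals were 24.4 to 65.1 for Wnt, 2.52 to 55.6 for microglia, 6.67 to 65.2 for adenine methylation and 19.2 to 74.9 for respiration genes.

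With the stricter score, which removes low scores by its construction, median widths were 443 bp in Astrocytes and 422 bp in Neurons, scores 75.3 in Astrocytes and 77.5 in Neurons, and folds 10.7 in Astrocytes and 10.4 in Neurons in the authors' deposited table. Inside a peak of the same library, widths were 412 bp in Astrocytes and 407 bp in Neurons, scores 63.3 in Astrocytes and 66.9 in Neurons, and the fold in Neurons 9.22. For single lists and the other chromosomes, 261 of 329 values stayed within counting error or 1.5 times. Each setting run for the lists drew only on the regions already counted, so redox genes could hold none higher in Astrocytes under any. Redox members higher in Neurons numbered 5 under the stricter score and 7 under the stricter fold, with no share of all genes computed there. No interval was made for the few regions left there, so their share of 0% was not set apart from that of all genes. Other causes of these shifts were not tested. At this depth, with scores near the limit, a region missing from a list is not shown to be equal in both cell types.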
